A study of Rattus norvegicus with 9 samples.

Results

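The fibroblast growth factor (FGF) genes described here were the 10 genes Fgf1, Fgf2, Fgf7, Fgf9, Fgf10, Fgf18, Fgfr1, Fgfr2, Fgfr3 and Fgfr4, that is 6 ligands and 4 receptors taken by name from a table of 17602 genes. All 10 were in the table and all passed the filter for testing, which asked for a value above 0 in at least 3 of the 9 libraries. The libraries came from knees of wild-type male Lewis rats aged 10 to 12 weeks. Intact libraries held synovium around the medial meniscus of rats without surgery, sham libraries held the same synovium 1 week after the joint capsule had been opened and closed, and pMx libraries held the tissue that was regenerating 1 week after a partial meniscectomy on the medial side, in which the meniscotibial ligament was cut and the front part of the medial meniscus was taken out. Each group had 3 libraries of oligo-dT selected RNA. The pMx tissue was excised with the surrounding synovium removed, so tissue and surgery cannot be told apart in any comparison with pMx. By the study's own record, RNA integrity was highest in the pMx samples and lowest in the intact samples, and integrity and group cannot be told apart either.

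FGF ligands are secreted proteins that bind receptor tyrosine kinases together with heparan sulfate chains, and the receptors pass the signal on through adaptor proteins to the MAPK cascade. Sprouty proteins and dual specificity phosphatases damp that cascade, and ETS family transcription factors are among its usual targets. In joints, FGF signaling is known for its part in growth of mesenchymal cells and in the control of chondrocyte proliferation.

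Levels were given as TPM, the count of a gene's transcripts in a fixed total, and are scaled to gene length, so that levels of different genes could be set side by side. Differences were tested on log2(TPM + 1) with limma over all 9 libraries and 16512 genes. A gene was called at a Benjamini-Hochberg adjusted p below 0.05, and it was a differentially expressed gene (DEG) when the log2 fold change was also beyond 1 in either direction. The log2(TPM + 1) scale understates the change of genes with low TPM. The labels name biological replicates without tying them to animals, so the p-values measure the spread between these samples. By the paper, pMx surgery was done on both knees, so samples of a group could share an animal.

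The regenerating tissue of the pMx group held less ligand RNA than sham synovium, with 5 of the 6 ligand genes lower, and more Fgfr2 RNA, while Fgfr1 RNA did not pass the test. Of the 10 genes, 7 were called between pMx and sham, beside 36.6% of all genes tested. Fgf1, Fgf2, Fgf7, Fgf10 and Fgf18 were lower, beside 18.9% of all genes called lower, and Fgfr2 and Fgfr4 were higher, beside 17.7% called higher. The 5 lower genes were all DEGs, beside 4.85% of all genes that were DEGs in that direction. The pMx and sham libraries did not overlap for 6 genes with pMx below, the called ligands and Fgf9, beside 29.0% of all genes, and for Fgfr2 and Fgfr4 with pMx above, beside 27.0%. The median log2 fold change was -0.75 over the 10 genes and -0.01 over all genes tested. In bulk samples, fewer cells of a type and less RNA per cell cannot be told apart.

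The windows around the annotated start sites are shown for the ligand that was listed at 0 in pMx (Fgf10), the ligand with the highest level (Fgf7), the ligand that was high in sham alone (Fgf18) and the receptor with the largest difference between pMx and sham (Fgfr2). They run 5′ to 3′ on the strand of the gene, from 250 bases before to 50 bases after the start, and come from RefSeq on build GRCr8, which held such a window for 9 of the 10 genes and not for Fgfr1. Capitals mark matches on either strand to any of 6 motifs, namely the TATA box TATAAA, the GC box GGGCGG, the AP-1 site TGANTCA, the TEAD site GGAATG, the hypoxia response core ACGTG and the ETS site CCGGAAG.
Fgf7 (chr3:133735377-133735676, plus strand): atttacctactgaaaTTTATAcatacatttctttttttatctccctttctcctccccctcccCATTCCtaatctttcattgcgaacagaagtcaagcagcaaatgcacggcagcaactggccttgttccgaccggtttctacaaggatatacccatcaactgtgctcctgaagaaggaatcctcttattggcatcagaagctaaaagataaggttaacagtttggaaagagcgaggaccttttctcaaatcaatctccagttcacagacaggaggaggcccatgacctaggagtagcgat
Fgf10 (chr2:52533689-52533988, plus strand): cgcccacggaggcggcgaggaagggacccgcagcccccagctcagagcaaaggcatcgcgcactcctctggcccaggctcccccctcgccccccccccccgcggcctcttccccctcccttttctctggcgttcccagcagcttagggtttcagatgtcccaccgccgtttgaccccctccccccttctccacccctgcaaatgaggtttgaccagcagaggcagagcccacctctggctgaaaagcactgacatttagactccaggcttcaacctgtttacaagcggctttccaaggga
Fgf18 (chr10:18240833-18241132, minus strand): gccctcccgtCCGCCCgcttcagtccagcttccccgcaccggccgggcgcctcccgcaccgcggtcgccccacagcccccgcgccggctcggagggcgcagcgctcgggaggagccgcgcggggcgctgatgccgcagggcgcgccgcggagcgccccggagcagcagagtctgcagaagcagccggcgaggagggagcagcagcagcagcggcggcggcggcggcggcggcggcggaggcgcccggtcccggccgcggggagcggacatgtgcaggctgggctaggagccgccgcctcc
Fgfr2 (chr1:194280865-194281164, minus strand): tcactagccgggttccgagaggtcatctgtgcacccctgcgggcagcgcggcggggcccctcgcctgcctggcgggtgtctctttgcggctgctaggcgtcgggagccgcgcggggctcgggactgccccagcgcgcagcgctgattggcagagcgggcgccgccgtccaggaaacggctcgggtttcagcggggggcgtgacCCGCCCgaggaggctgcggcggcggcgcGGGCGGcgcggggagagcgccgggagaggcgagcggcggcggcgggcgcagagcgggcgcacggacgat

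The 4 windows differed in base composition. GC content was 43.7% in the Fgf7 window, 64.0% in that of Fgf10, 77.7% in that of Fgfr2 and 81.3% in that of Fgf18, against a median of 51.7% over 33469 promoter windows. The Fgf7 window held a TATAAA and a GGAATG match, each read on the opposite strand, and the Fgf10 window held a match to none of the 6 motifs. GGGCGG matched at 2 places in the Fgfr2 window and at 1 place in the Fgf18 window. Of all windows, 14.2% held TATAAA, 33.1% GGGCGG, 7.33% TGANTCA, 14.2% GGAATG, 19.3% ACGTG and 8.75% CCGGAAG, and no overlap was found among the marked matches in these 4 windows. A match is only a description of the letters in the window.

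Fgf7, keratinocyte growth factor, is made by mesenchymal cells and acts on the epithelial splice form of Fgfr2. It was the ligand gene with the highest level in every library. Its level was 46.6, 62.4 and 57.2 TPM in intact replicates 1 to 3, 35.9, 32.8 and 35.0 TPM in sham and 14.0, 15.9 and 13.0 TPM in pMx. The 3 groups did not overlap, with intact above sham and sham above pMx. Between pMx and sham, Fgf7 fell by 1.22 on the log2(TPM + 1) scale (SE 0.11, limma adjusted p = 0.000118), from 34.6 ± 1.58 to 14.3 ± 1.45 TPM (SD, n = 3 each). Between sham and intact it fell by 0.66 (adjusted p = 0.0112).

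Fgf1, acidic FGF, binds all 4 receptors and has no classical signal peptide. The values were 14.5, 18.5 and 13.0 TPM in intact, 8.37, 9.19 and 9.22 TPM in sham and 1.09, 1.16 and 1.40 TPM in pMx. Again the groups were ordered intact, sham, pMx without overlap. The mean fell from 8.93 ± 0.482 TPM in sham to 1.22 ± 0.163 TPM in pMx (SD, n = 3 each), a 7.34-fold lower mean, with a log2(TPM + 1) difference of -2.16 (SE 0.13, limma adjusted p = 2.63e-05). The sham mean was 1.72-fold lower than the intact mean of 15.3 ± 2.85 TPM (log2 difference -0.71, adjusted p = 0.0145), and that call was lost without sham replicate 1 (adjusted p = 0.0588) or sham replicate 2 (adjusted p = 0.0522).

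Fgf2, basic FGF, is a mitogen of many mesenchymal cells and also lacks a classical signal peptide. It measured 2.81, 3.52 and 3.24 TPM in intact, 2.90, 2.41 and 3.45 TPM in sham and 0.430, 0.430 and 0.570 TPM in pMx. All pMx libraries lay below all others, whereas intact and sham overlapped. The pMx mean was 6.13-fold below the sham mean (log2(TPM + 1) difference -1.40, SE 0.12, limma adjusted p = 7.37e-05), and between sham and intact the difference was -0.10 with a 95% confidence interval from -0.37 to 0.17. Fgf2 overlaps Nudt6 on the opposite strand. The paper's library preparation made the second cDNA strand with dUTP, but whether counting used strand is not given in the sources used here. Nudt6 was also lower in pMx than in sham, with means of 3.26 and 5.67 TPM (log2 difference -0.65, adjusted p = 0.0215), and how reads were divided between the genes was not tested.

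Fgf10, a mesenchymal ligand of the same receptor form as Fgf7, is known for limb and lung budding and for adipose development. It was listed at 0 in all 3 pMx libraries. The intact libraries held 2.82, 7.54 and 3.53 TPM and the sham libraries 3.55, 3.61 and 9.26 TPM. Intact replicate 2 and sham replicate 3 were each more than the other libraries of their group, and intact and sham overlapped. The comparison of pMx with sham was called (limma adjusted p = 0.000884), and it was called in all 18 alternatives, with the size of the fitted difference set by the pseudocount, from -2.58 at 1 TPM to -8.94 at 0.01 TPM, so no fold is given.

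Fgf18, which acts on chondrocytes, was the 1 gene of the 6 ligands that was called higher in sham than in intact. Its level was 7.09, 8.19 and 4.26 TPM in intact, 11.1, 15.0 and 17.6 TPM in sham and 3.60, 6.36 and 7.99 TPM in pMx. Every sham library lay above every intact and every pMx library, and intact and pMx overlapped. Between sham and intact Fgf18 rose 2.24-fold in the mean (log2(TPM + 1) difference 1.07, SE 0.30, limma adjusted p = 0.0498). That call was lost in 8 of the 9 fits that left out 1 library, all but the one without pMx replicate 1, with adjusted p from 0.0401 to 0.142 over the 9. From sham to pMx it fell 2.44-fold (log2 difference -1.19, SE 0.30, adjusted p = 0.0138), a call that was lost without sham replicate 3 (adjusted p = 0.0546). From intact to pMx the difference was -0.12 (95% confidence interval -0.80 to 0.56).

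Fgf9, a ligand with known roles in skeletal growth, was low throughout. Intact libraries held 0.300, 0.550 and 2.29 TPM, sham libraries 0.400, 0.500 and 0.500 TPM and pMx libraries 0.1, 0.360 and 0.170 TPM. The 3 pMx libraries lay below the sham libraries, and intact replicate 3 was far above the rest. The difference between pMx and sham was -0.28 on the log2(TPM + 1) scale (95% confidence interval -0.96 to 0.39, limma adjusted p = 0.502). Intact replicate 3 also had a summed skeletal muscle marker level of 37285 TPM, against 52.6 and 167 TPM in the other intact libraries, and the part of those markers in the Fgf9 level was not tested.

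**Figure D1:**
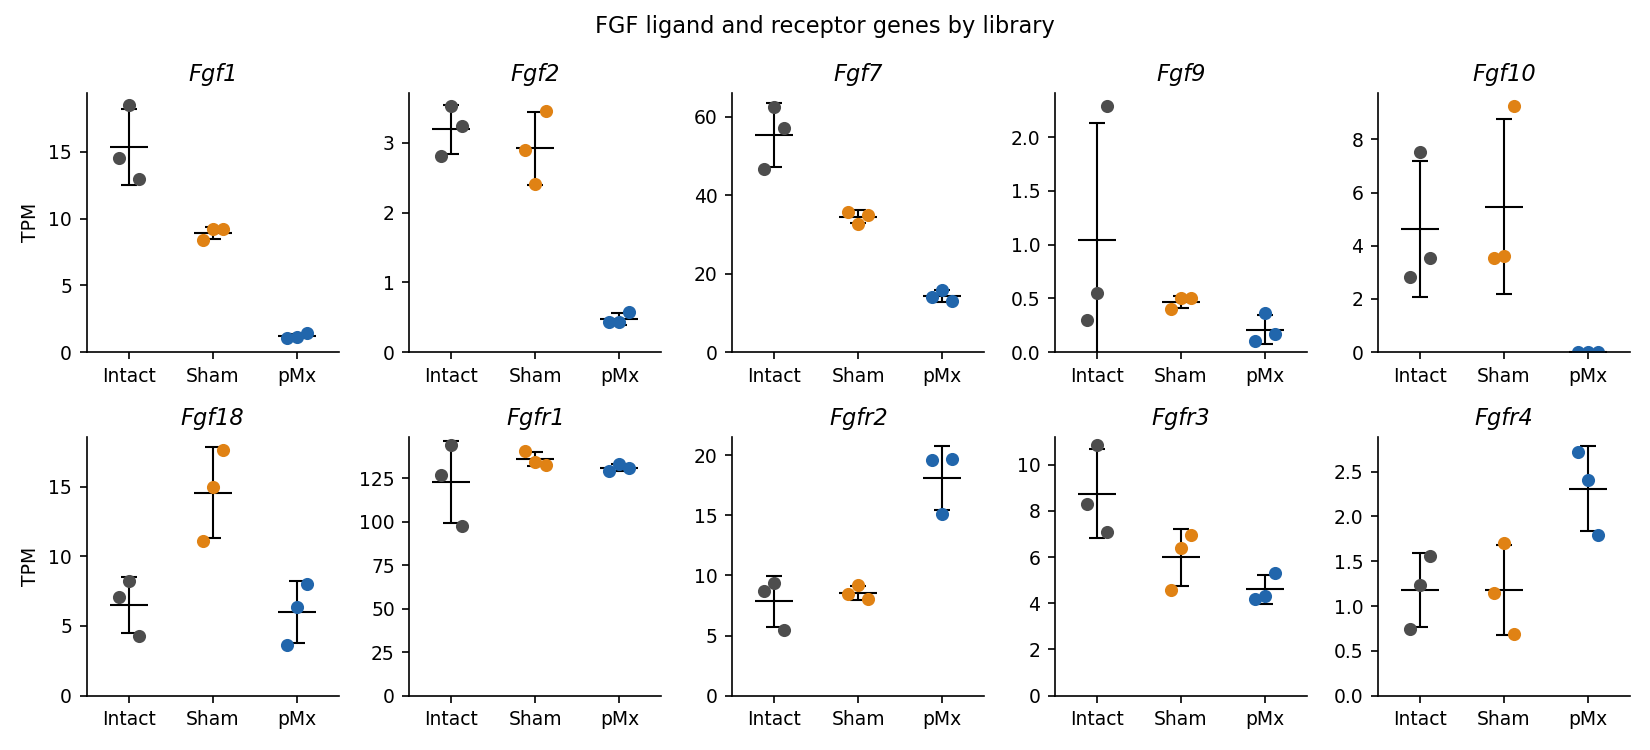
TPM of the 10 FGF genes (y axes, 1 scale per gene, starting at 0) in intact, sham and pMx, with 1 point per library and the mean ± SD of 3 as a dash with bars, the lower bar of Fgf9 in intact being cut at 0. All 6 ligand genes have their pMx points below their sham points, and the pMx points of Fgfr2 (15.1 to 19.7 TPM) are above those of the other groups.

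The receptor genes did not follow the ligands. None of the 4 receptors was lower in pMx than in sham by the test. Fgfr1, the main receptor of mesenchymal tissue, was far above the other receptors in every library. Its values were 127, 144 and 97.5 TPM in intact, 141, 135 and 133 TPM in sham and 129, 133 and 131 TPM in pMx. The groups overlapped and the pMx and sham means of 131 ± 1.78 and 136 ± 4.12 TPM differed by -0.05 on the log2(TPM + 1) scale, with a 95% confidence interval from -0.33 to 0.23 (limma adjusted p = 0.786).

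Fgfr2, the receptor whose splice forms separate epithelial from mesenchymal ligand binding, was the receptor gene with the largest difference in both comparisons with pMx. It was 8.72, 9.40 and 5.43 TPM in intact, 8.47, 9.21 and 8.05 TPM in sham and 19.6, 15.1 and 19.7 TPM in pMx. Every pMx library was above every other library, and intact and sham overlapped. The mean rose from 8.58 ± 0.587 TPM in sham to 18.1 ± 2.63 TPM in pMx, a 2.11-fold difference (log2(TPM + 1) difference 0.99, SE 0.19, limma adjusted p = 0.00360). It was not a DEG in this fit, and it was past that size with a pseudocount of 0.1 TPM (1.06) or 0.01 TPM (1.07), with quantile normalization (1.01), and without sham replicate 2 (1.04) or pMx replicate 2 (1.11). Against intact the difference was 1.13 (adjusted p = 0.00107) and Fgfr2 was a DEG. The values are per gene and do not separate its splice forms.

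Fgfr3, the receptor that restrains chondrocyte proliferation in growth plates, had 8.28, 10.9 and 7.08 TPM in intact, 4.58, 6.39 and 6.97 TPM in sham and 4.18, 4.31 and 5.32 TPM in pMx. Intact libraries were the highest, and sham and pMx overlapped. It was lower in pMx than in intact, by -0.78 (limma adjusted p = 0.00687), while the steps from intact to sham (-0.48, adjusted p = 0.125) and from sham to pMx (-0.31, adjusted p = 0.229) did not pass the test.

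Fgfr4 was the receptor gene with the lowest level. Its values were 0.740, 1.24 and 1.56 TPM in intact, 1.15, 1.70 and 0.690 TPM in sham and 2.72, 2.41 and 1.79 TPM in pMx. The pMx libraries lay above the others by a small margin. Between sham and pMx the mean rose 1.95-fold (log2(TPM + 1) difference 0.62, SE 0.20, limma adjusted p = 0.0443). That call was lost without intact replicate 2, sham replicate 1, sham replicate 3, pMx replicate 1 or pMx replicate 2 (adjusted p from 0.0597 to 0.146). Against intact the difference was 0.61 (adjusted p = 0.0352), and this call was lost without intact replicate 1 or 2, sham replicate 1, or pMx replicate 1 or 2 (adjusted p from 0.0523 to 0.111). In the same libraries the skeletal muscle markers summed to 52.6, 167 and 37285 TPM in intact, 1129, 2430 and 192 TPM in sham and 2130, 2508 and 75.9 TPM in pMx. In each group the library with the lowest muscle sum had the lowest Fgfr4 level. The part of those markers in the Fgfr4 level was not tested.

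**Figure D2:**
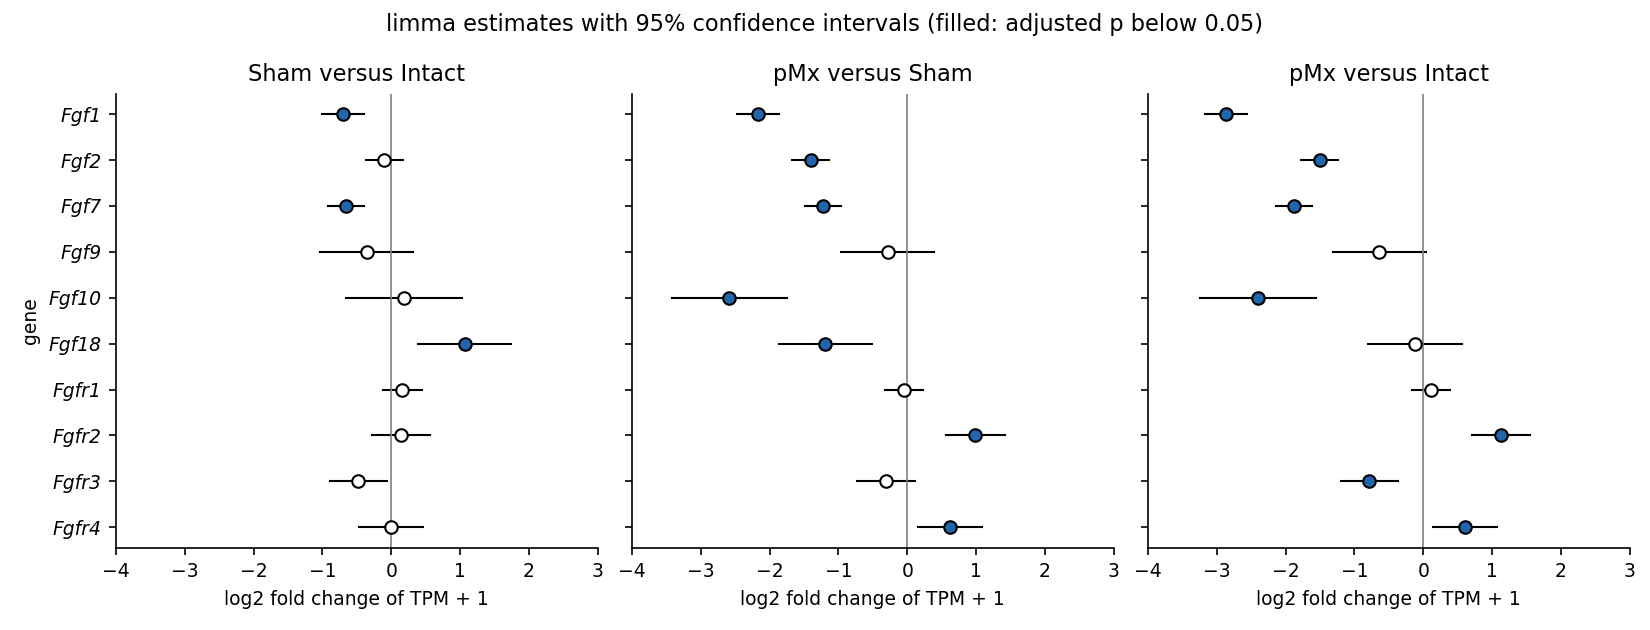
Log2 fold change of TPM + 1 (x axis) with its 95% confidence interval for each FGF gene (y axis) in the 3 comparisons, filled where the adjusted p was below 0.05. Ligands lie left of 0 in pMx versus sham, Fgf9 with an interval that spans 0, and Fgf18 lies right of 0 in sham versus intact at 1.07.

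Sham surgery alone was accompanied by fewer differences. Between sham and intact 3 of the 10 genes were called, beside 12.7% of all genes tested, with Fgf1 and Fgf7 lower (5.97% of all genes were) and Fgf18 higher (6.73%). Fgf18 was the 1 DEG of these, beside 1.42% of all genes that were DEGs in that direction. Libraries of the groups did not overlap for Fgf18 with sham above, beside 14.2% of all genes, and for Fgf1, Fgf7 and Fgfr3 with sham below, beside 16.4%. None of the 4 receptors was called in that comparison. Between pMx and intact 7 of the 10 were called, beside 50.6% of all genes, with Fgf1, Fgf2, Fgf7, Fgf10 and Fgfr3 lower (27.1% of all genes were) and Fgfr2 and Fgfr4 higher (23.4%). Fgf1, Fgf2, Fgf7 and Fgf10 were DEGs with pMx lower, beside 7.89% of all genes, and Fgfr2 was a DEG with pMx higher, beside 6.40%. The same 7 genes were those whose pMx and intact libraries did not overlap, 5 below and 2 above, beside 30.6% and 26.9% of all genes. The 3 comparisons share libraries and are not independent of each other.

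The order of the ligand genes by mean level also differed among the groups. In intact it was Fgf7, Fgf1, Fgf18, Fgf10, Fgf2 and Fgf9, where the libraries of Fgf18 and Fgf10, and those of Fgf10 and Fgf2, overlapped. In sham Fgf18 stood above Fgf1 without overlap, and Fgf1 overlapped Fgf10. In pMx Fgf7, Fgf18, Fgf1, Fgf2 and Fgf9 followed each other without overlap, and Fgf10 was listed at 0. Among the receptors, Fgfr2 and Fgfr3 overlapped in intact, and Fgfr2 stood above Fgfr3 without overlap in sham and in pMx.

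Summed over the 6 ligand genes, the level was 86.1 ± 13.5 TPM in intact, 66.9 ± 7.07 TPM in sham and 22.2 ± 2.63 TPM in pMx (SD, n = 3 each). The summed level of the 4 receptor genes was 141 ± 27.1, 152 ± 3.20 and 156 ± 1.56 TPM in the same order. The ligand sums of the pMx libraries (19.2 to 24.2 TPM) were below all sham sums (62.2 to 75.0 TPM). Within the ligand sum, Fgf18 took 7.60 ± 2.28% in intact, 21.6 ± 3.28% in sham and 26.5 ± 7.88% in pMx, and Fgf7 took 64.4 ± 3.53%, 52.0 ± 5.52% and 64.9 ± 8.30%.

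**Figure D3:**
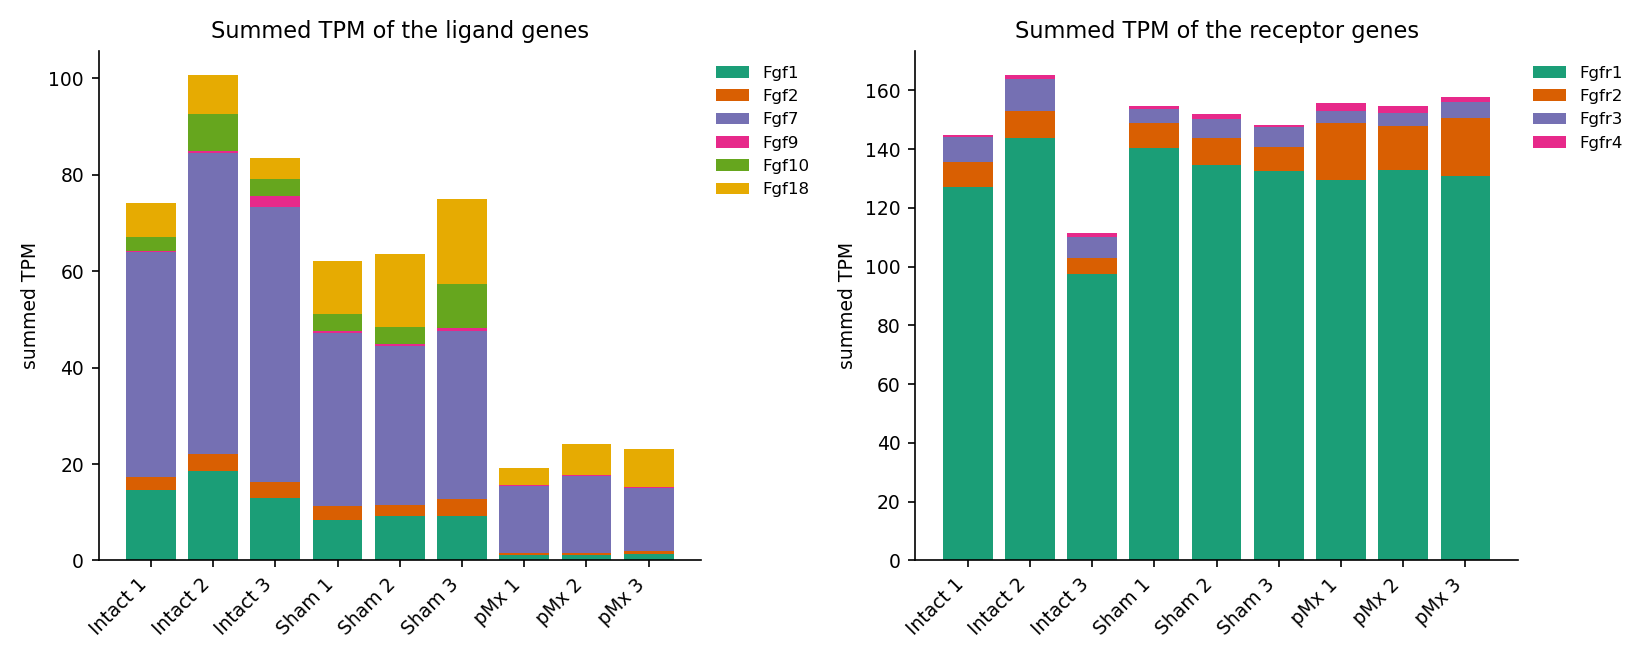
Summed TPM (y axes, from 0) of the 6 ligand genes and of the 4 receptor genes, stacked by gene, with 1 bar per library (x axes). The ligand bars of pMx reach 19.2 to 24.2 TPM, below all the others, while the receptor bars are mostly Fgfr1 in every library.

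The makeup of the receptor sum was compared as shares, which do not depend on scaling between libraries. Fgfr1 made up 87.4 ± 0.378% of the sum in intact, 89.6 ± 1.12% in sham and 84.0 ± 1.67% in pMx. The Fgfr2 share was 5.53 ± 0.594%, 5.66 ± 0.356% and 11.6 ± 1.60% (SD, n = 3 each), with the pMx libraries (9.75 to 12.6%) above all others. Fgfr3 took 6.21 ± 0.440%, 3.96 ± 0.897% and 2.95 ± 0.372%, and Fgfr4 took 0.887 ± 0.459%, 0.776 ± 0.329% and 1.48 ± 0.313%. In 12 two-sided exact permutation tests the smallest p was 0.1, which is the smallest that 3 against 3 libraries allow (adjusted p = 0.15), so no share difference could pass the threshold. That p was reached by Fgfr1 in all 3 comparisons, by Fgfr2 in both comparisons with pMx, by Fgfr3 in both comparisons with intact and by Fgfr4 between pMx and sham.

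Other genes of the pathway were taken from 7 lists with 77 genes, of which 72 were in the table and 69 were tested. Between pMx and sham 25 were called, 16 higher and 9 lower, a share of 36.2% beside 36.6% of all genes, so the lists as a whole were called about as often as the rest. Between sham and intact 9 were called, 3 higher and 6 lower (13.0% beside 12.7%), and between pMx and intact 38, with 19 in each direction (55.1% beside 50.6%). The count for pMx and sham was 15 without sham replicate 3 and 16 without pMx replicate 1. Among 5 tested other ligands none was called between pMx and sham, and among 4 FGF homologous factors, which act inside cells, Fgf12 was lower, at 1.51, 1.63 and 2.45 TPM in sham and 0.0700, 1.18 and 0.1 TPM in pMx (log2(TPM + 1) difference -1.05), a call that was lost without sham replicate 3, pMx replicate 1 or pMx replicate 3 (limma adjusted p from 0.0617 to 0.0664). Fgf16, a further ligand gene, was higher in sham than in intact, at 5.06 ± 1.06 and 2.10 ± 0.269 TPM, and leaving out any library other than pMx replicate 1 ended that call (adjusted p up to 0.153).

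Co-receptors and carriers moved in both directions, with 5 of 13 higher and 1 lower in pMx than in sham (46.2% called, beside 36.6% of all genes). Gpc3, a glypican that carries heparan sulfate at the cell surface, had the largest difference of the listed genes on the log2(TPM + 1) scale. It was 16.3, 15.0 and 19.8 TPM in sham and 0.610, 0.650 and 1.17 TPM in pMx, and it fell by 3.32 on the log2(TPM + 1) scale (SE 0.21, limma adjusted p = 2.63e-05). Its relative Gpc1 rose from 111 ± 22.1 to 377 ± 30.2 TPM (log2 difference 1.77, SE 0.14). The syndecan gene Sdc1 rose from 47.7 ± 9.71 to 114 ± 8.65 TPM and Hspg2, which encodes perlecan, from 78.7 ± 12.7 to 173 ± 19.6 TPM. Fgfrl1, a receptor without a kinase domain, and Gpc4 were higher as well, and Sdc4 was lower in sham than in intact. The Fgfrl1 call was lost without sham replicate 1 or 3 or any pMx replicate (adjusted p from 0.0552 to 0.107), and the Gpc4 call without sham replicate 2 or 3 or pMx replicate 1 or 2 (0.0623 to 0.0660). That of Sdc4 was lost without any library other than intact replicate 1 and sham replicate 1 (0.0594 to 0.138).

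Among 13 genes of heparan sulfate synthesis and editing, 3 were higher and 2 were lower in pMx than in sham (38.5% called, near the 36.6% of all genes). The endosulfatases Sulf1 and Sulf2, which remove 6-O-sulfate groups from the chains, moved in opposite directions. Sulf1 was 57.5, 56.2 and 61.5 TPM in sham and 25.7, 28.3 and 29.1 TPM in pMx (log2(TPM + 1) difference -1.05, SE 0.08), and Sulf2 was 103, 117 and 82.9 TPM in sham and 203, 231 and 200 TPM in pMx (difference 1.07, SE 0.22). Neither pair of groups overlapped. Both genes had moved the same way from intact to sham, by -0.37 for Sulf1 and 0.92 for Sulf2. The 3-O-sulfotransferase gene Hs3st1 fell from 32.0 ± 2.28 to 10.9 ± 2.06 TPM, and the polymerase gene Ext2 rose from 85.0 ± 4.90 to 138 ± 8.14 TPM. Hs6st1 was higher in pMx than in sham and Glce was lower in sham than in intact. Of the calls between sham and intact, that of Sulf2 was lost without sham replicate 1 or 2 (limma adjusted p = 0.0897 and 0.104), that of Sulf1 without intact or sham replicate 1 or 2 (0.0529 to 0.0957) and that of Glce without any library other than intact replicate 3 (0.0604 to 0.121).

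Adaptors and members of the MAPK relay changed by little. Of 17 genes, 4 were higher and 1 was lower in pMx than in sham (29.4% called, beside 36.6% of all genes), and none was a DEG. Shc1, an adaptor, rose from 150 ± 4.76 to 215 ± 4.15 TPM (log2(TPM + 1) difference 0.51). Map2k2 (0.31) and Nras were among the higher genes, and the phosphatase gene Ptpn11 was the lower one (-0.17). The Map2k2, Nras and Ptpn11 calls were each lost without sham replicate 3 (limma adjusted p from 0.0755 to 0.121) or pMx replicate 1 (0.0849 to 0.0956), and some also without sham replicates 1 or 2 or pMx replicates 2 or 3. Rescaling by median of ratios also ended the calls of Map2k2 (0.0594) and Ptpn11 (0.0716). From intact to sham, Shc1 was higher (0.29) and Ptpn11 lower (-0.27). There the Shc1 call was lost without any library other than intact replicates 1 and 3 (0.0587 to 0.119), and that of Ptpn11 without sham replicate 1 (0.0532).

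Of 11 feedback inhibitors, 3 were called between pMx and sham (27.3%, beside 36.6% of all genes). Spred3 was higher in pMx, at 5.34, 5.63 and 4.46 TPM in sham and 11.1, 9.97 and 13.2 TPM in pMx (log2(TPM + 1) difference 1.01). Spry1, a Sprouty gene, was lower at each step, with means of 18.1 ± 1.62 TPM in intact, 10.2 ± 1.73 TPM in sham and 6.12 ± 0.841 TPM in pMx (differences -0.78 and -0.64). Dusp4 was lower in pMx (-0.44) and Spry4 was lower in sham than in intact (-0.56). Dusp6 did not pass the test in any of the 3 comparisons, and Spry2 passed it only between pMx and intact, where it was lower (-0.27, adjusted p = 0.0335). Both Spry1 calls and the Spred3 call were kept in every alternative. The Dusp4 call was lost without intact replicate 2 or any sham or pMx replicate (limma adjusted p from 0.0534 to 0.112), and the Spry4 call without intact replicate 1 or 2, any sham replicate or pMx replicate 1 (0.0525 to 0.0976).

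Of the 6 transcription factor genes, 3 were higher, beside 17.7% of all genes, and 2 were lower, beside 18.9%, in pMx than in sham, and the ETS factors among them did not move together. Etv4 was 0.710, 1.29 and 0.820 TPM in sham and 2.56, 2.59 and 2.59 TPM in pMx (log2(TPM + 1) difference 0.90). Etv1 was 15.4, 11.8 and 14.9 TPM in sham and 5.70, 4.6 and 4.96 TPM in pMx (difference -1.30), and Etv5 was 12.4 ± 0.493 and 12.6 ± 0.392 TPM (difference 0.01, adjusted p = 0.904). Fosl1, an AP-1 subunit, rose from 0.877 ± 0.414 to 4.66 ± 0.514 TPM (difference 1.62). Egr1, an immediate early gene, was lower (-0.86) and Myc was higher. The Egr1 call was lost without any sham replicate or pMx replicate 1 or 2 (adjusted p from 0.0742 to 0.113), and the Myc call without sham replicate 3 or pMx replicate 3 (0.0653 in both).

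**Figure D4:**
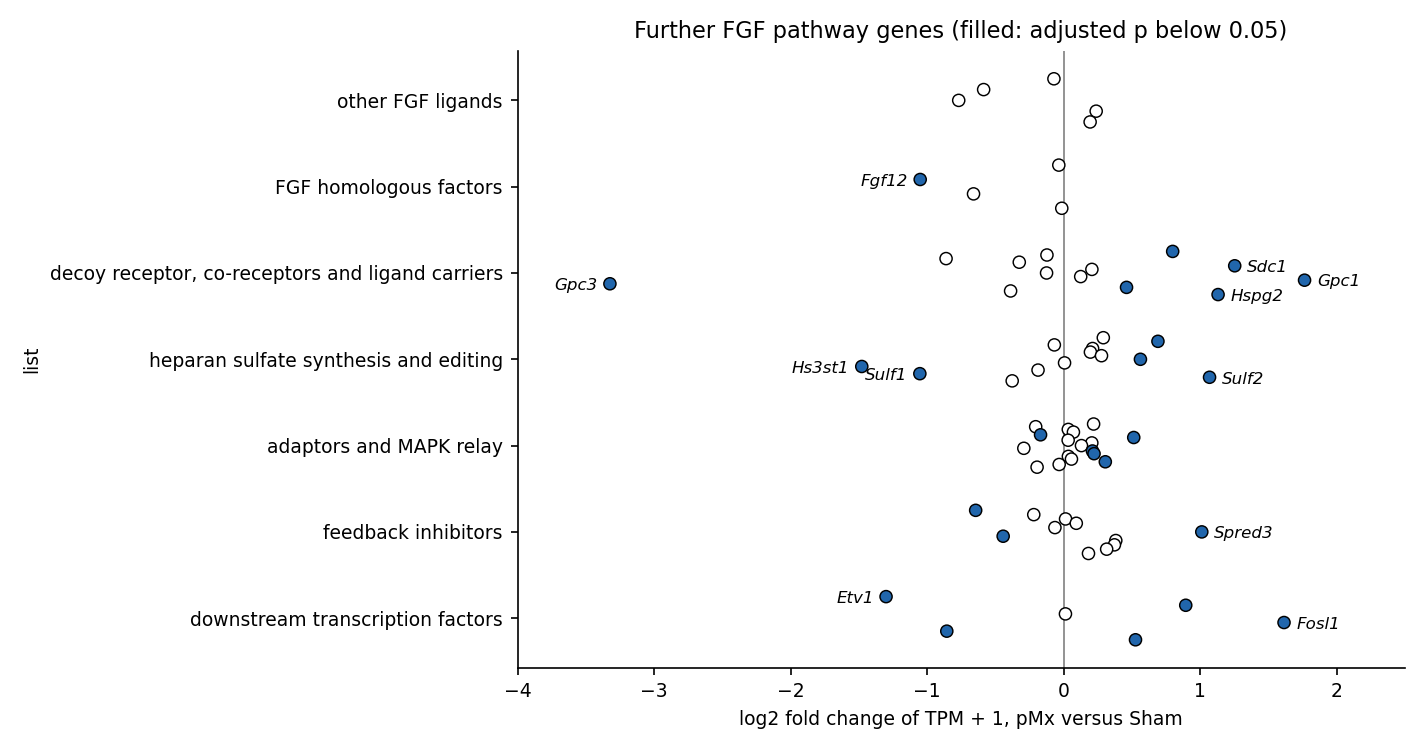
Log2 fold change of TPM + 1 between pMx and sham (x axis) for 69 further FGF pathway genes by list (y axis), with 1 point per gene, filled where the adjusted p was below 0.05 and named where it was also beyond 1. Filled points lie on both sides of 0, from Gpc3 at -3.32 to Gpc1 at 1.77.

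Markers of other cell types moved with the same groups. The summed level of 6 adipocyte markers was 165 to 1512 TPM in intact, 980 to 1317 TPM in sham and 24.3 to 41.5 TPM in pMx, and all 6 were lower in pMx than in sham, beside 18.9% of all genes. That of 5 Schwann cell markers was 138 to 258, 118 to 165 and 11.97 to 14.71 TPM, again with all 5 lower. The 6 fibroblast markers summed to 9291 to 13860 TPM in intact, 20900 to 24527 TPM in sham and 48990 to 53524 TPM in pMx, with 4 higher, beside 17.7% of all genes, and 1 lower in pMx than in sham. Most of that sum was Col1a1, Col1a2 and Col3a1. Pdgfra overlapped between sham and pMx, and Dcn was 4956, 4172 and 4921 TPM in sham and 2497, 2640 and 2187 TPM in pMx. The part of these cell types in the ligand and receptor values was not tested. Within intact, Fgf10 was 2.82, 7.54 and 3.53 TPM where the adipocyte markers summed to 1512, 568 and 165 TPM. Within sham it was 3.55, 3.61 and 9.26 TPM where they summed to 1317, 1072 and 980 TPM. The Schwann cell markers summed to 192, 258 and 138 TPM in these intact libraries and to 144, 118 and 165 TPM in sham. The smooth muscle and pericyte markers summed to 3532, 5050 and 3158 TPM in these intact libraries and to 2392, 2355 and 2717 TPM in sham. The synovial lining markers summed to 4529, 5003 and 3709 TPM in intact and to 2675, 1986 and 2400 TPM in sham. In pMx, where Fgf10 was listed at 0, the adipocyte, Schwann cell, smooth muscle and pericyte, and synovial lining sums were all the lowest.

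The labelled tissues were checked against their markers as well. The 4 synovial lining markers summed to 3709 to 5003 TPM in intact, 1986 to 2675 TPM in sham and 1177 to 1885 TPM in pMx. Between pMx and sham, 2 of the 4 were called lower, beside 18.9% of all genes, and 0 higher. Prg4, the largest part of the sum, overlapped, at 1451, 1245 and 1248 TPM in sham and 1738, 1537 and 1084 TPM in pMx. The 7 fibrocartilage and chondrocyte markers summed to 265 to 811, 519 to 604 and 977 to 1181 TPM, and Cnmd was listed at 0 in all pMx libraries. Between pMx and sham, 3 of the 7 were called higher, beside 17.7% of all genes, and 1 lower, beside 18.9%. Comp was most of the sum, at 802, 786 and 933 TPM in pMx. Acan was 32.5, 26.4 and 6.84 TPM in sham and 205, 182 and 236 TPM in pMx. Chad was 1.43, 43.0 and 7.54 TPM in sham and 0.23, 0.15 and 0.08 TPM in pMx. Endothelial markers summed to 800 to 1030, 676 to 733 and 591 to 735 TPM, macrophage markers to 592 to 966, 1090 to 1103 and 830 to 1111 TPM, and smooth muscle and pericyte markers to 3158 to 5050, 2355 to 2717 and 1332 to 1564 TPM. Between pMx and sham, 1 of 6 endothelial and 2 of 5 smooth muscle and pericyte markers were called lower, beside 18.9% of all genes. Of 5 macrophage markers, 1 was called higher, beside 17.7%. Members of these lists went both ways. The pMx libraries all lay above the sham libraries for Kdr, Cdh5, Cspg4, Mcam and Cd68, beside 27.0% of all genes. They all lay below them for Emcn, Myh11, Acta2 and C1qa, beside 29.0%. Skeletal muscle markers reached 37285 TPM in 1 intact library, up to 2430 TPM in sham and up to 2508 TPM in pMx, with none of 8 called. Epithelial markers, of cells that carry the Fgfr2 form bound by Fgf7 and Fgf10, summed to at most 1.51 TPM in any library, with Krt14 listed at 0 in all intact and sham libraries. Of the 4 listed, Krt5 was not in the table, so the sum covers 3 genes, of which 2 were tested.

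**Figure D5:**
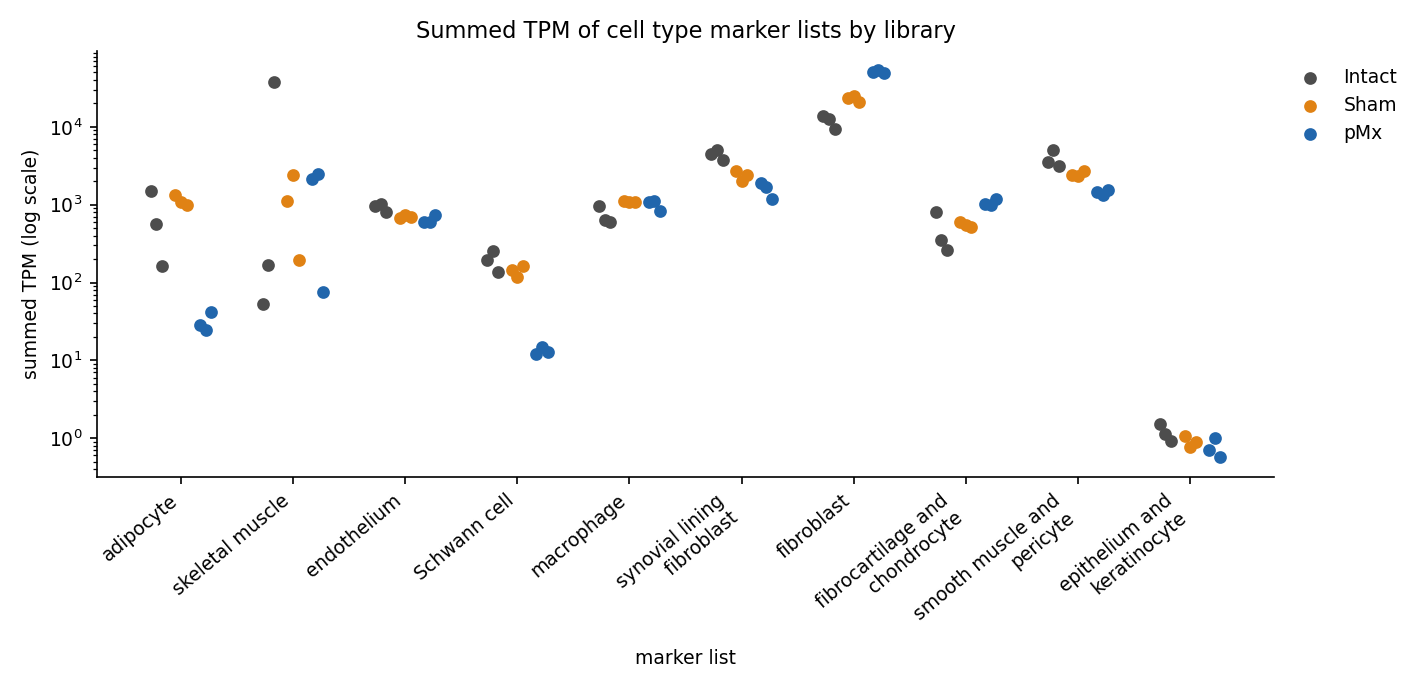
Summed TPM of the genes of each cell type marker list (y axis, log scale) by list (x axis), with 1 point per library and the group in colour. The pMx points are below the others for adipocyte, Schwann cell, synovial lining, and smooth muscle and pericyte markers. They are above the others for fibroblast markers and for fibrocartilage and chondrocyte markers.

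The genes whose levels ran closest to each FGF gene were found by Pearson correlation of log2(TPM + 1) over the 9 libraries among 13203 genes, as a description in which points of the same group share their tissue. The closest was Cygb for Fgf1 (r = 0.998), Mmrn1 for Fgf2 (r = 0.995), Pde4c for Fgf7 (r = 0.995), Lvrn for Fgf10 (r = 0.984) and Rpl27 for Fgf18 (r = 0.981). The Fgf1 partner Cygb, a globin gene of fibroblasts, had means of 158, 114 and 47.0 TPM in intact, sham and pMx. Mmrn1 had 15.1, 14.7 and 0.417 TPM in the same order, low in pMx alone as Fgf2 was. Rpl27 had 1707, 1889 and 1675 TPM, a smaller relative change than that of Fgf18 (6.51, 14.6 and 5.98 TPM). Among receptors, the closest were Adap1 for Fgfr1 (r = 0.979), Cd81 for Fgfr2 (r = 0.993), Dach1 for Fgfr3 (r = 0.990) and Cog6 for Fgfr4 (r = 0.986). Next in likeness were Apol11a and Npnt for Fgf1, Ak5 and Dtx1 for Fgf2, Mdga2 and Klhl32 for Fgf7, Peli2 and Acot11 for Fgf10, and Tspan11 for Fgf18. For the receptors they were Telo2 and Ywhab for Fgfr1, Fkbp1a and Hmgcs1 for Fgfr2, Trim62 and Egfl7 for Fgfr3, and Mgrn1 and Dot1l for Fgfr4.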

How the data were processed

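RNA-seq was performed on 9 libraries, 3 per group, as grouped by the sample titles. The authors deposited 1 table of TPM per gene and library. The submitters' processing notes name HISAT2 2.0.4 and build mRatBN7.2, and the counting tool and annotation are not given in the sources used here. TPM has about the same total (1000000) in each library and keeps no depth, so depth is unknown and no counting interval was given. Genes above 0 TPM in at least 3 libraries were fitted on log2(TPM + 1) with limma 3.58.1 (R 4.3.3), using 1 mean per group and a mean-variance trend, and p-values were adjusted by the Benjamini-Hochberg method over all 16512 genes. The study's thresholds were used, but its test was not named. Shares were compared with exact permutation tests in SciPy 1.17.1, and plots were drawn with Matplotlib 3.10.9. The fit was tested on simulated data. Of 17602 gene identifiers, 17419 matched RefSeq genes of GRCr8, used for names only. Alternatives changed the pseudocount, the filter, the scaling, the libraries fitted, the trend and the replicate block.

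The FGF genes, pathway lists and marker lists were chosen with earlier results of these data known. All 10 FGF genes were named, and from each pathway list the genes called between pMx and sham or between sham and intact, the 4 with the largest absolute log2 fold change with values. Nudt6, Dusp6, Spry2 and Etv5 were named outside that rule after their values were seen. For each FGF gene with a mean of at least 1 TPM, the 3 genes with the highest correlation were to be named. A few genes that these rules take are not reported here.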

Additional observations from a re-analysis of the deposited data

How the results depend on the processing

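Under the 9 alternatives that keep all libraries of a comparison, no FGF gene changed direction, and 6 to 8 of the 10 genes were called between pMx and sham and 6 or 7 between pMx and intact. Fgf1, Fgf2, Fgf7, Fgf10 and Fgfr2 were called between pMx and sham in every alternative. With only the 6 libraries of the comparison, Fgf9 was also called between pMx and sham (adjusted p = 0.0407), and between sham and intact 1 FGF gene was called in place of 3, 2 further pathway genes in place of 9, and 687 of all genes in place of 2097. Median-of-ratios rescaling called 14 further pathway genes between sham and intact. Fgfr4 lost its call between pMx and sham with a pseudocount of 0.1 TPM (adjusted p = 0.0608) or 0.01 TPM (0.0667), or with the replicate block (0.0656). The Fgf18 call between sham and intact was lost in 6 of the 9 alternatives (adjusted p from 0.0367 to 0.0725 over the 9). Leaving out 1 library at a time, the calls between sham and intact ran from 1 to 3 FGF genes (1 without sham replicate 1 or 2), from 2 to 14 further pathway genes and from 640 to 2971 of all genes, and those between pMx and sham from 5 to 7 FGF genes and from 15 to 32 further pathway genes. Uncalled log2 fold changes that changed sign when 1 library was left out ran, between sham and intact, from -0.21 to 0.53 for Fgf10, from -0.18 to 0.16 for Fgfr4, from -0.62 to 0.046 for Fgf9 and from -0.072 to 0.27 for Fgfr2, and between pMx and intact from -0.36 to 0.15 for Fgf18 and from -0.044 to 0.23 for Fgfr1. The causes were not tested. Fgf9, with a mean under 1 TPM, had no value under that filter. Outliers were not tested in groups of 3.

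The labels number the replicates 1 to 3 in each group without saying that a number marks a shared animal or day. Across genes, the offsets from the group mean of libraries with the same number correlated at 0.03, 0.37 and 0.48 between pMx and sham, at 0.00, -0.40 and -0.49 between sham and intact and at -0.38, -0.44 and -0.66 between pMx and intact. Not every library correlated best with its own number. The offsets within a group depend on each other, so these correlations cannot settle whether a number marks a shared animal or day. With the replicate number as a block, 6, 2 and 6 FGF genes were called in pMx versus sham, sham versus intact and pMx versus intact, the lost calls being Fgfr4 (adjusted p = 0.0656), Fgf18 (0.0725) and Fgfr4 (0.0531), with 23, 3 and 40 further pathway genes and 5901, 1585 and 8208 of all genes.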
